A study of Mus musculus with 16 samples.

Results

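Omp and 9 genes listed with the olfactory transduction cascade were followed through 16 array libraries of sorted mouse olfactory mucosa cells. The 9 are Gnal, Adcy3, Cnga2, Cnga4, Cngb1, Ano2, Pde1c, Slc24a4 and Slc8b1. The 10 genes were found by their platform symbol, each by 1 probe set, among 19505 genes with a measured level. The libraries came from S100a5-tauGFP mice on a C57BL/6 background, of both sexes and 7 to 12 weeks old, in which a green fluorescent protein (GFP) reporter is tied to S100a5, a calcium-binding protein gene that neuronal activity is known to raise. The 24 mice stayed singly in clean air for 40 h, and from 26 h on received a 10 s pulse every 20 min. In the odor mice the pulse held isoamyl acetate together with whiskey lactone, and in the vehicle mice filtered air. Cells of 3 mice were pooled before fluorescence sorting, so that each of 8 pools (4 per treatment) gave a GFP+ and a GFP- library from the same mice. The design asks which genes differ between cells whose reporter is on or off, and whether the odor mixture changes that. In bulk libraries such as these, fewer cells of a type and less RNA per cell cannot be told apart.

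The 4 groups, each of 4 libraries, are odor titled GFP+, odor titled GFP-, vehicle titled GFP+ and vehicle titled GFP-. The word "titled" is kept because in all 16 samples the cell type tag contradicts the title as to which fraction was sorted. Groups follow the titles, and under the tags every difference between fractions would change sign. S100a5 itself was lower in the titled GFP+ library of every pool except vehicle pool 3, with within-pool differences between -1.86 and -0.65 in the other 7 pools and 1.38 in vehicle pool 3. Each comparison was therefore fitted with all 16 arrays, as labelled, and a second time with 14, leaving out both libraries of that pool. No library was moved to another group. The reporter is tied to S100a5, so the direction of this gene went with the tags in the other 7 pools and with the titles in vehicle pool 3. Which label is right was not tested, and titled GFP+ is not to be read as reporter on.

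Odorant receptors on the cilia of olfactory sensory neurons activate the G protein Golf, whose alpha subunit is the product of Gnal. Golf turns on adenylyl cyclase (Adcy3), the cyclic AMP made opens a cyclic nucleotide-gated channel built of Cnga2, Cnga4 and Cngb1, and the calcium that enters opens the chloride channel Ano2. The phosphodiesterase Pde1c breaks cyclic AMP down, the exchanger of Slc24a4 carries calcium out of the cilium, and Slc8b1 encodes a sodium-calcium exchanger of mitochondria. Omp encodes olfactory marker protein, the textbook marker of mature olfactory neurons.

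Values are the authors' deposited log2 levels, which ran from 1.69 to 19.4, past the limit of 16 that a 16-bit scanner can give. Differences therefore stay on the deposited scale, with no folds, and levels of different genes are not compared. Of the 10 genes, 8 lay above the 95th percentile of the array's negative control probe sets (9.79) in all 16 libraries. Cngb1 and Slc8b1 did not, and reached above the library's own median of those controls in 8 and 3 of 16 libraries. Groups were compared with limma, a linear model that moderates each gene's spread with that of all genes, and a gene is called where the p adjusted by Benjamini-Hochberg over all 19505 genes was under 0.05. Nothing in the labels says that pools of a treatment were handled separately beyond the sort, so p-values measure the spread between these libraries.

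**Figure D1:**
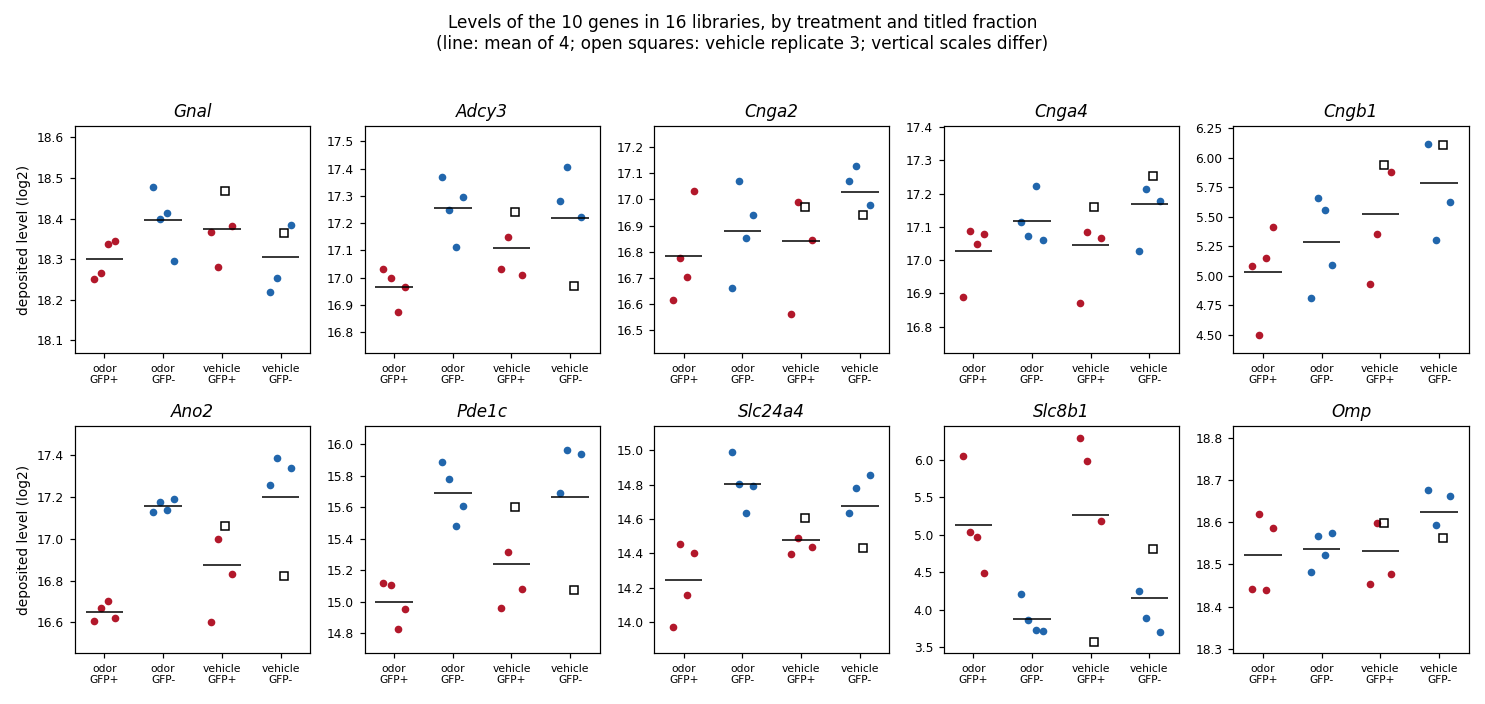
Deposited log2 level of each of the 10 genes in the 16 libraries, by treatment and titled fraction; points are libraries, lines are means of 4, and open squares are the libraries of vehicle pool 3. Ano2, Pde1c and Slc24a4 lay lower in every odor titled GFP+ library than in every odor titled GFP- library, Slc8b1 lay higher, and for these 4 genes the open squares run opposite to the other vehicle pools.

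In odor mice Ano2, Pde1c and Slc24a4 were lower in titled GFP+ than in titled GFP- libraries, with differences of -0.51, -0.69 and -0.56 on the log2 scale. That is 3 of 10 genes called lower and 0 higher over 16 arrays, where 6.97% of all genes were called, 2.39% lower and 4.57% higher. Over 14 arrays the same 3 were lower and Slc8b1 was higher, with 13.2% of all genes called. No odor library was left out, so the odor differences are the same over 16 and 14 arrays. What changed is the spread, which the fit shares with vehicle mice. The 16-array calls were narrow. With the pool of mice as a block all 3 had an adjusted p of 0.161 by limma, and leaving out any 1 of the 8 odor libraries ended the calls of Ano2 (adjusted p up to 0.107 by limma) and Pde1c (up to 0.113), as did any but titled GFP+ replicate 4 for Slc24a4 (up to 0.100). Without vehicle titled GFP- replicate 1 or vehicle titled GFP+ replicate 4 the odor calls of Ano2 and Pde1c were lost too. Their adjusted p-values were then up to 0.0512 and 0.0596 by limma. The odor call of Pde1c was also lost without vehicle titled GFP+ replicate 2 (adjusted p = 0.0587 by limma). Over 14 arrays the pool block ended no call. In vehicle mice no member passed over 16 arrays, where limma called 0 of 19505 genes at an adjusted p under 0.05 and 9.8% of them (1912 genes, 3 of them members) at an unadjusted p under 0.05. Without vehicle pool 3 Ano2 and Pde1c were lower and Slc8b1 was higher in vehicle mice too, the Ano2 call resting on single libraries, with 11.2% of all genes called, 3.32% lower and 7.86% higher. That pool was left out for its S100a5 difference. Over 16 libraries Pearson's r with S100a5 was 0.82 for Ano2, 0.82 for Pde1c and -0.88 for Slc8b1. These vehicle calls are therefore not independent of leaving the pool out. Gnal, Adcy3, Omp and the 3 subunits of the nucleotide-gated channel passed in neither treatment. The median difference of the 10 genes was -0.17 in odor mice, beside -0.08 over all genes, and -0.25 in vehicle mice over 14 arrays, beside -0.10 over all genes. The fractions of odor mice did not overlap for 5 of 10 members (Adcy3, Ano2, Pde1c and Slc24a4 lower, Slc8b1 higher), against 16.5% of all genes, 7.6% lower. Over 14 arrays the vehicle fractions did not overlap for the same 5, against 27.6% of all genes, 14.9% lower.

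At the head of the cascade, Gnal stood at 18.25, 18.27, 18.34 and 18.35 in odor titled GFP+ libraries, against 18.48, 18.40, 18.41 and 18.30 in odor titled GFP- libraries. In vehicle mice Gnal stood at 18.37, 18.28, 18.47 and 18.38 in titled GFP+ libraries and at 18.22, 18.25, 18.37 and 18.38 in titled GFP- libraries. The fractions overlapped in both treatments, and the levels of this G protein subunit spanned only 18.22 to 18.48 in all. The difference was -0.10 in odor mice (95% interval -0.31 to 0.11, adjusted p = 0.631 by limma) and 0.07 in vehicle mice (-0.14 to 0.28, adjusted p = 0.855 by limma) over 16 arrays.

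Adcy3, the cyclase that makes cyclic AMP in the cilium, had levels of 17.03, 17.00, 16.87 and 16.97 in odor titled GFP+ libraries, against 17.37, 17.25, 17.11 and 17.29 in odor titled GFP- libraries. In vehicle mice it had 17.03, 17.15, 17.24 and 17.01 in titled GFP+ libraries, against 17.28, 17.41, 16.97 and 17.22 in titled GFP- libraries, the 17.24 and the 16.97 being those of vehicle pool 3. The odor fractions did not overlap, and nor did the vehicle fractions without that pool. The difference in odor mice was -0.29 (95% interval -0.54 to -0.04), which limma did not call over 16 arrays (adjusted p = 0.159) or 14 arrays (adjusted p = 0.140). In vehicle mice it was -0.11 over 16 arrays and -0.24 over 14 arrays (95% interval -0.53 to 0.05, adjusted p = 0.336 by limma). A limma setting that lets the moderation follow the level of a gene called the odor difference of Adcy3 over 14 arrays, with an adjusted p of 0.0204.

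The subunits of the nucleotide-gated channel showed no called difference. Cnga2, the subunit that binds cyclic AMP and can form a channel alone, had 16.62, 16.78, 16.70 and 17.03 in odor titled GFP+ libraries, against 16.66, 17.07, 16.85 and 16.94 in odor titled GFP- libraries. In vehicle mice Cnga2 had 16.56, 16.99, 16.97 and 16.85 in titled GFP+ libraries and 17.07, 17.13, 16.94 and 16.98 in titled GFP- libraries. These values overlapped in both treatments. Cnga4, a modulatory subunit, lay between 16.89 and 17.09 in odor titled GFP+ libraries, against 17.06 to 17.22 in odor titled GFP- libraries, a difference of -0.09 (95% interval -0.32 to 0.14). Over 16 arrays the vehicle differences were -0.19 for Cnga2 (-0.47 to 0.10) and -0.12 for Cnga4 (-0.35 to 0.11), with adjusted p-values of 0.684 and 0.744 by limma. Cngb1, the other modulatory subunit, lay between 4.49 and 5.41 in odor titled GFP+ libraries, against 4.81 to 5.66 in odor titled GFP- libraries. Its level is that of negative controls, and its 95% interval was wide, from -0.83 to 0.34, so this probe set leaves its difference undecided.

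Ano2, the chloride channel that amplifies the odor current, separated the odor fractions with little spread. Its levels were 16.61, 16.67, 16.70 and 16.62 in odor titled GFP+ libraries, against 17.13, 17.18, 17.14 and 17.19 in odor titled GFP- libraries. Every odor titled GFP+ library lay below every odor titled GFP- library, by more than the whole range within either fraction. The difference was -0.51 (95% interval -0.80 to -0.22, adjusted p = 0.0389 by limma) over 16 arrays and had an adjusted p of 0.00869 by limma over 14. In vehicle mice Ano2 had 16.60, 17.00, 17.06 and 16.83 in titled GFP+ libraries, against 17.26, 17.39, 16.82 and 17.34 in titled GFP- libraries. The 17.06 and 16.82 are those of vehicle pool 3, and without them the fractions did not overlap. The vehicle difference was -0.33 over 16 arrays (adjusted p = 0.478 by limma) and -0.52 over 14 arrays (95% interval -0.81 to -0.22, adjusted p = 0.0226 by limma). That vehicle call was lost without titled GFP+ replicate 1 (-0.41, adjusted p = 0.119 by limma) or replicate 4 (adjusted p = 0.0573 by limma), and without titled GFP- replicate 2 (adjusted p = 0.0811 by limma) or replicate 4 (adjusted p = 0.0626 by limma).

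Pde1c, whose calcium-activated enzyme removes cyclic AMP, had 15.12, 15.11, 14.82 and 14.95 in odor titled GFP+ libraries, against 15.89, 15.78, 15.48 and 15.61 in odor titled GFP- libraries. In vehicle mice it had 14.96, 15.32, 15.60 and 15.08 in titled GFP+ libraries, against 15.69, 15.97, 15.07 and 15.94 in titled GFP- libraries. Leaving out vehicle pool 3, with 15.60 and 15.07, the titled GFP+ libraries lay below the titled GFP- libraries in both treatments. The odor difference was -0.69 (95% interval -1.10 to -0.28, adjusted p = 0.0458 by limma) over 16 arrays, and its adjusted p was 0.00323 by limma over 14. The vehicle difference was -0.43 over 16 arrays (adjusted p = 0.497 by limma) and -0.75 over 14 arrays (95% interval -1.10 to -0.40, adjusted p = 0.00579 by limma).

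Slc24a4, the potassium-dependent sodium-calcium exchanger that clears calcium after a response, had 13.97, 14.45, 14.16 and 14.40 in odor titled GFP+ libraries, against 14.99, 14.80, 14.64 and 14.79 in odor titled GFP- libraries. In vehicle mice it had 14.39, 14.49, 14.60 and 14.43 in titled GFP+ libraries, against 14.64, 14.78, 14.43 and 14.85 in titled GFP- libraries. The odor fractions did not overlap, nor did the vehicle fractions once the 14.60 and 14.43 of vehicle pool 3 were left out. The odor difference was -0.56 (95% interval -0.85 to -0.27, adjusted p = 0.0315 by limma) over 16 arrays, and its adjusted p was 0.0123 by limma over 14. Over 14 arrays that call rested on odor titled GFP+ replicate 1, the lowest library: without it the difference was -0.47, with an adjusted p of 0.0503 by limma. The vehicle difference was -0.20 over 16 arrays and -0.32 over 14 arrays (95% interval -0.66 to 0.02, adjusted p = 0.267 by limma). The difference between the odor and the vehicle fraction difference was -0.37 over 16 arrays (95% interval -0.78 to 0.05, adjusted p = 0.999 by limma), so the fraction difference was not shown to depend on the odor.

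Slc8b1, the mitochondrial exchanger, ran the other way. It had 6.05, 5.03, 4.97 and 4.49 in odor titled GFP+ libraries, against 4.21, 3.87, 3.73 and 3.72 in odor titled GFP- libraries. In vehicle mice it had 6.30, 5.98, 3.57 and 5.19 in titled GFP+ libraries, against 4.26, 3.89, 4.81 and 3.70 in titled GFP- libraries, with 3.57 and 4.81 in vehicle pool 3. Most of these levels lay below the median of the negative controls (5.46 over all libraries), and no odor titled GFP- library reached it. The odor difference was 1.25 (95% interval 0.24 to 2.27, adjusted p = 0.131 by limma) over 16 arrays and was called over 14 (0.62 to 1.89, adjusted p = 0.00869 by limma). The vehicle difference was 1.10 over 16 arrays (adjusted p = 0.489 by limma) and 1.88 over 14 arrays (95% interval 1.15 to 2.61, adjusted p = 0.00131 by limma).

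Omp had 18.44, 18.62, 18.44 and 18.59 in odor titled GFP+ libraries, against 18.48, 18.57, 18.52 and 18.57 in odor titled GFP- libraries. In vehicle mice it had 18.45, 18.60, 18.60 and 18.48 in titled GFP+ libraries and 18.68, 18.59, 18.56 and 18.66 in titled GFP- libraries. The marker of mature neurons overlapped between fractions in both treatments and was among the steadiest genes of the table, with a smaller standard deviation over the 16 libraries in only 0.0564% of genes; for Gnal that share was 0.0666%. The difference was -0.01 in odor mice (95% interval -0.22 to 0.19) and -0.09 in vehicle mice (-0.30 to 0.12), with adjusted p-values of 0.956 and 0.793 by limma over 16 arrays. The highest Omp value lay 0.725 below the highest value in the table, and the highest Gnal value 0.924 below it. A narrowed range at the top of the scale was not tested for either gene.

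**Figure D2:**
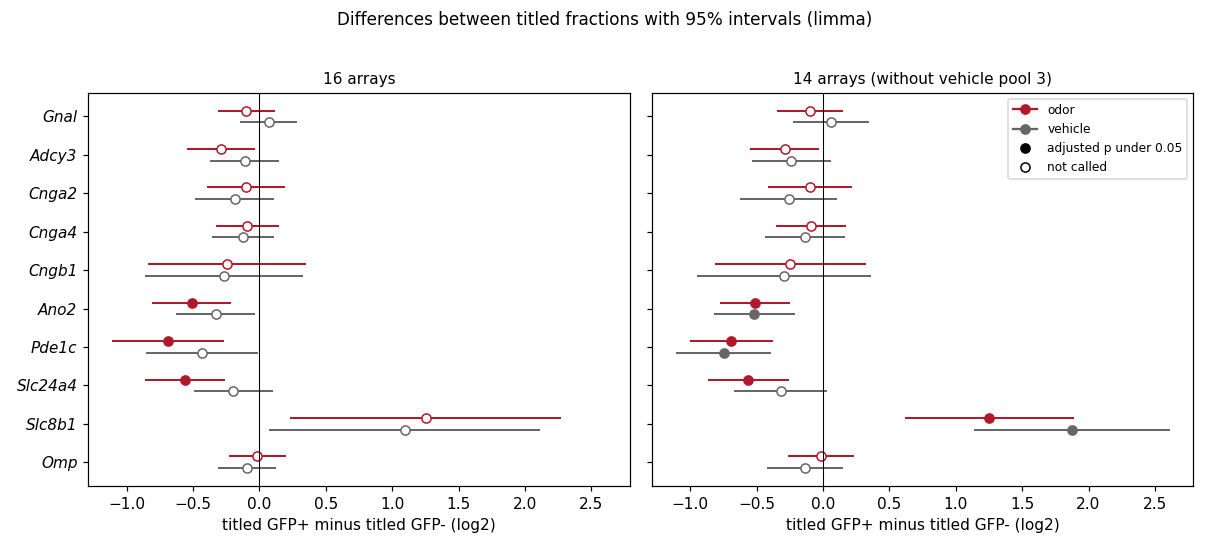
Difference between titled GFP+ and titled GFP- libraries on the log2 scale for each gene, with limma's 95% intervals, for all 16 arrays (left) and the 14 arrays without vehicle pool 3 (right); red is odor, grey is vehicle, and filled points had an adjusted p under 0.05. Only Ano2, Pde1c, Slc24a4 and Slc8b1 have filled points, and the vehicle ones appear only in the right panel.

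The 2 libraries of a pool came from the same mice, so each pool gives its own difference of titled GFP+ minus titled GFP-. Without vehicle pool 3, Adcy3, Ano2, Pde1c and Slc24a4 were lower in titled GFP+ in 7 of 7 pools and Slc8b1 was higher in 7 of 7. That direction held in every one of 7 pools for 21.1% of all genes, 10.5% lower and 10.7% higher. The 7 pools are those in which S100a5 ran the same way, so these counts are not independent of leaving out vehicle pool 3. The within-pool difference averaged -0.27 ± 0.05 for Adcy3, -0.51 ± 0.09 for Ano2, -0.71 ± 0.08 for Pde1c and -0.46 ± 0.26 for Slc24a4 (SD, n = 7). For Pde1c the 7 differences lay between -0.86 and -0.65. For Adcy3 they lay between -0.34 and -0.21. Slc24a4 was the least even, from -1.02 in odor pool 1 to -0.24 in vehicle pool 1, and Slc8b1 averaged 1.52 ± 0.50 (SD, n = 7). In vehicle pool 3 the sign was turned for all 5 genes, with 0.27 for Adcy3, 0.24 for Ano2, 0.53 for Pde1c, 0.17 for Slc24a4 and -1.24 for Slc8b1. Gnal and Omp were lower in 4 of 7 pools, Cngb1 in 3, Cnga4 in 5 and Cnga2 in 6.

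**Figure D3:**
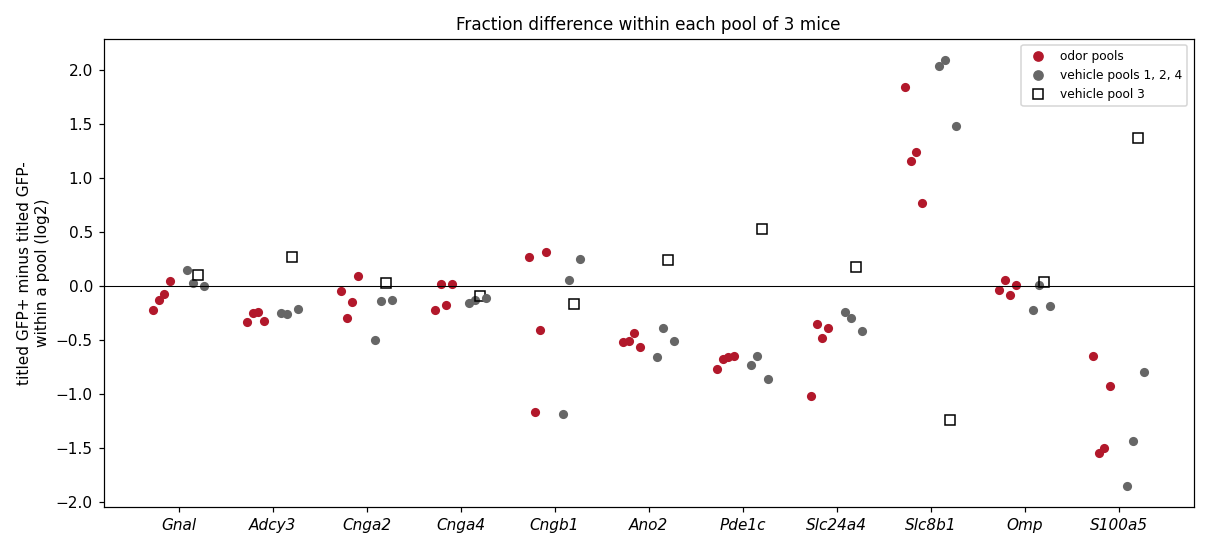
Titled GFP+ minus titled GFP- within each pool of 3 mice, on the log2 scale, for the 10 genes and S100a5; each point is a pool, red for odor, grey for vehicle pools 1, 2 and 4, and open squares for vehicle pool 3. The 7 filled points of Adcy3, Ano2, Pde1c and Slc24a4 lie below 0 and those of Slc8b1 above, while the squares of these genes and of S100a5 lie on the other side of 0.

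Markers of some other cell types were higher in the same titled GFP+ libraries, but not those of all. The 3 horizontal basal cell markers had 0 calls over 14 arrays and averaged below the negative control median in every group. The 3 endothelial markers averaged below that median in every group too. Of the 3 measured ensheathing glia markers only Sox10 was called over 14 arrays, higher by 1.28 in vehicle mice (adjusted p = 0.00294 by limma). Of the 3 measured ciliated cell markers only Ccdc113 was called, and it was lower. It differed by -0.87 in odor mice (adjusted p = 0.0187 by limma) and -1.06 in vehicle mice (adjusted p = 0.0149 by limma) over 14 arrays. Over 14 arrays all 8 myeloid markers were higher in titled GFP+ libraries in both treatments, with a mean level over the 8 of 11.9 to 14.5 in odor titled GFP+ libraries, against 5.20 to 7.31 in odor titled GFP- libraries. In vehicle mice without pool 3 their mean level was 14.3 to 14.7 in titled GFP+ libraries, against 6.38 to 8.02 in titled GFP- libraries. None of the 8 averaged below the negative control median in odor titled GFP+ libraries, against 2 of 8 in odor titled GFP- libraries. The 3 lymphoid markers, 5 microvillar markers and 4 of 6 immature neuron markers were higher too. So were 5 of 5 markers of globose basal cells and progenitors in odor mice and 4 of 5 in vehicle mice, and 4 of 7 sustentacular markers in odor mice and 3 of 7 in vehicle mice. Globose basal and progenitor markers averaged 6.56 to 7.50 in odor titled GFP+ libraries, against 4.30 to 5.20 in odor titled GFP- libraries, and sustentacular markers 9.60 to 10.9, against 7.94 to 8.98. Immature neuron markers averaged 12.0 to 12.4 in odor titled GFP+ libraries, against 10.0 to 10.2 in odor titled GFP- libraries. The part of these cells in the lower Ano2, Pde1c and Slc24a4 and the higher Slc8b1 was not tested.

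Mature neuron markers other than the 10 genes averaged 16.6 to 16.7 in odor titled GFP+ libraries, against 16.9 to 17.1 in odor titled GFP- libraries. Of these 5 markers, 2 were lower in odor mice over 14 arrays, and the median difference of the 5 was -0.11. In odor mice Cidea differed by -1.14 and Umodl1 by -0.38, with adjusted p-values of 0.000553 and 0.0466 by limma. In vehicle mice over 14 arrays 1 of the 5 was lower, Cidea, and the median was -0.10. Stoml3, a cilia protein of mature neurons, differed by -0.01 (95% interval -0.24 to 0.22), as little as Omp. With each array centred on its own Omp level, Ano2 and Pde1c differed by -0.50 and -0.67 in odor mice over 14 arrays. Omp itself differed by only -0.01 there, so this centring could change those differences little and does not test the share of mature neurons. The vehicle difference of Ano2 was no longer called, at -0.38 with an adjusted p of 0.127 by limma.

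Genes around the cascade were counted from lists. Of 4 partners of the G protein (Gnb1, Gng13, Ric8b and Ric8a), 5 genes of receptor transport and the cilia membrane, 6 measured of 9 genes of chloride loading and ion pumps and 7 transcription factors, 0 were called in either treatment over 14 arrays. Stoml3, Gfy and Rtp1 of the transport list were also among the mature neuron markers above. At an unadjusted p under 0.05 in odor mice, limma passed 0 of the partners, 0 of the transport genes, 2 of the chloride and pump genes and 0 of the transcription factors. The share of all genes at that threshold is not given here, so these counts are not read as few or many. Of the transcription factors, Ebf1 differed by -0.10 and Lhx2 by -0.01 in odor mice, both with intervals that include 0. Of 9 measured of 11 genes of calcium feedback and response shut-off, 2 were higher, Rgs2, a regulator of G protein signaling, and Grk3, a kinase that phosphorylates activated receptors. Rgs2 differed by 3.86 in odor mice and 4.36 in vehicle mice. Rgs2 averaged 8.05 in odor titled GFP+ libraries, against 4.19 in odor titled GFP- libraries, the second of these below the negative control median. Grk3 averaged 5.88 in odor titled GFP+ libraries, against 5.27 in odor titled GFP- libraries, and 5.64 in vehicle titled GFP+ libraries, against 4.92 in vehicle titled GFP- libraries. Its titled GFP- means lay below the negative control median of 5.46 and its titled GFP+ means little above it. Pde4a, the cyclic AMP phosphodiesterase of the neuron's soma and dendrite, differed by -0.41 in odor mice (95% interval -0.77 to -0.06) and was not called, with an adjusted p of 0.137 by limma.

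Among 30 relatives of the 10 genes in the same families, 2 were higher and 2 lower in odor mice over 14 arrays, where 8.59% of all genes were higher and 4.59% lower. Gnas, the alpha subunit of the G protein that stimulates adenylyl cyclase in most other cells, averaged 10.90 in odor titled GFP+ libraries, against 7.37 in odor titled GFP- libraries, a difference of 3.53 (95% interval 3.01 to 4.04, adjusted p = 5.88e-08 by limma). Its olfactory counterpart Gnal did not pass. Slc8a1, a plasma membrane sodium-calcium exchanger, differed by -0.95 and Slc24a2, a potassium-dependent one like Slc24a4, by -0.67, with adjusted p-values of 0.000812 and 0.00791 by limma. Adcy6, another adenylyl cyclase, passed at an adjusted p of 0.0491 by limma, but its means of 5.41 in odor titled GFP+ and 4.84 in odor titled GFP- libraries both lay below the negative control median of 5.46, so its level was not above background. In vehicle mice Gnas was higher by 3.52 and Slc8a1 differed by -1.10. Adcy7 passed there with means of 5.69 in titled GFP+ and 4.77 in titled GFP- libraries, the second of these below the negative control median. The median of the 30 was -0.06 in odor mice, close to the -0.08 of all genes.

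Odor against vehicle gave 0 called members in either titled fraction, in the difference of fraction differences and in the means of each pool's pair of libraries, with 16 or 14 arrays. The table as a whole held almost none: limma called 0% of genes in titled GFP+ and 0.0103% in titled GFP- libraries over 16 arrays, and 0.0359% and 0.0256% over 14. The difference of fraction differences had 0.00513% of genes called over 16 arrays and 0.0103% over 14. Over pool means, which do not depend on which library of a pool is titled GFP+, it was 0.0103% with 8 pools and again with 7. At an unadjusted p under 0.05 limma passed 0 members over 16 arrays, against 4.66% of all genes in titled GFP+ and 6.36% in titled GFP- libraries. It passed 1 over pool means, Cngb1, where 7.19% of all genes did.

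Cngb1 had pool means of 4.94, 5.08, 5.36 and 5.25 in odor pools, against 5.53, 5.33, 6.03 and 5.75 in vehicle pools. They overlapped by 1 pair, the difference was -0.50 (95% interval -0.85 to -0.14, adjusted p = 0.599 by limma), and all of them lie near the level of negative controls. Ano2 had pool means of 16.87, 16.92, 16.92 and 16.91 in odor pools, against 16.93, 17.19, 16.94 and 17.09 in vehicle pools. All 4 odor pools lay below all 4 vehicle pools, as for 2.11% of all genes, but the gap was small beside the spread of the vehicle pools and the difference of -0.13 was not called (95% interval -0.37 to 0.10, adjusted p = 0.835 by limma). Slc8b1 differed by -0.20 over the means of 8 pools. In titled GFP+ libraries alone it differed by -0.12 over 16 arrays. Over 14 arrays, which leave out the 3.57 of vehicle titled GFP+ replicate 3, that difference was -0.69, with an adjusted p of 0.636 by limma.

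For the other 7 members the difference of pool means lay between -0.11 for Pde1c and 0.01 for Gnal over 8 pools. The interval was -0.29 to 0.18 for Adcy3, -0.39 to 0.17 for Pde1c, -0.29 to 0.18 for Slc24a4 and -0.27 to 0.17 for Omp. Each of these includes 0, and an odor difference of any size within its bounds remains compatible with these libraries. No gene of the lists around the cascade was called in odor against vehicle. At an unadjusted p under 0.05 over the means of 8 pools, limma passed 2 of the 9 measured calcium feedback genes and 2 of the 30 relatives. The share of all genes there was 7.19%, and 0 partners, transport genes, chloride and pump genes and transcription factors passed. With 7 pools 4 of the 9 calcium feedback genes passed, where the share of all genes is not given here.

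**Figure D4:**
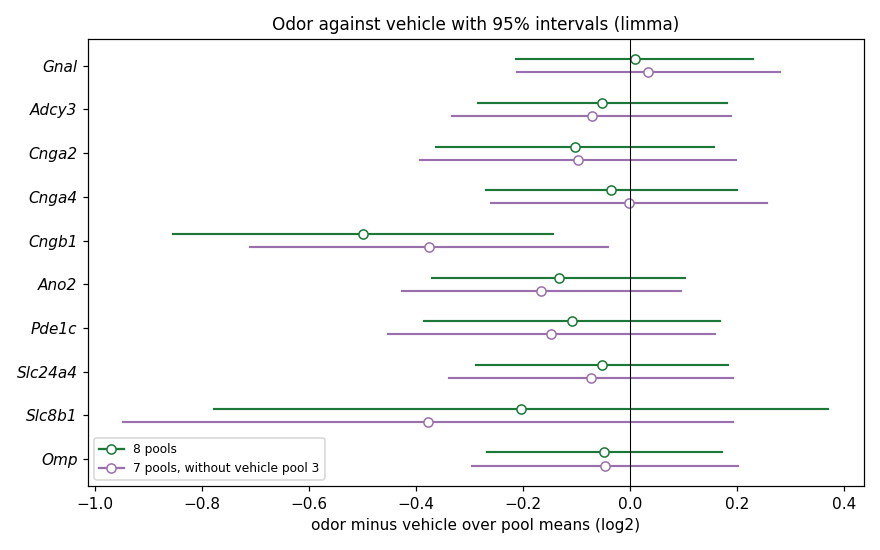
Odor minus vehicle over pool means on the log2 scale for the 10 genes, with limma's 95% intervals; green is 8 pools and purple is 7 pools without vehicle pool 3, and open points were not called. Only the intervals of Cngb1, whose level is that of negative controls, lie wholly below 0.

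The genes fell into patterns when their levels were set against each other over the 16 libraries. These correlations describe libraries that share 8 pools and 4 groups, and so carry the fraction difference within them. Adcy3 and Pde1c ran closest, with a Pearson r of 0.94, and Pde1c was the gene most like Adcy3 among all 19505. Ano2 and Pde1c had an r of 0.93, and Slc24a4 and Pde1c 0.86, so that these 4 genes formed one block of values from 0.82 to 0.94. With group means removed over 14 arrays the block was largely gone: Adcy3 and Pde1c had an r of 0.75, while its other 5 pairs lay between 0.22 (Ano2 and Slc24a4) and 0.47 (Pde1c and Slc24a4). Omp was outside the block and ran closest to Cnga2, at 0.79, while Gnal had no member above 0.36. Over the 16 libraries Slc8b1 was negatively related to all 9 others, from -0.74 with Ano2 to -0.34 with Cngb1. With group means removed over 14 arrays its r with Ano2 was -0.33, and the sign turned for Adcy3 (0.39) and Pde1c (0.21).

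**Figure D5:**
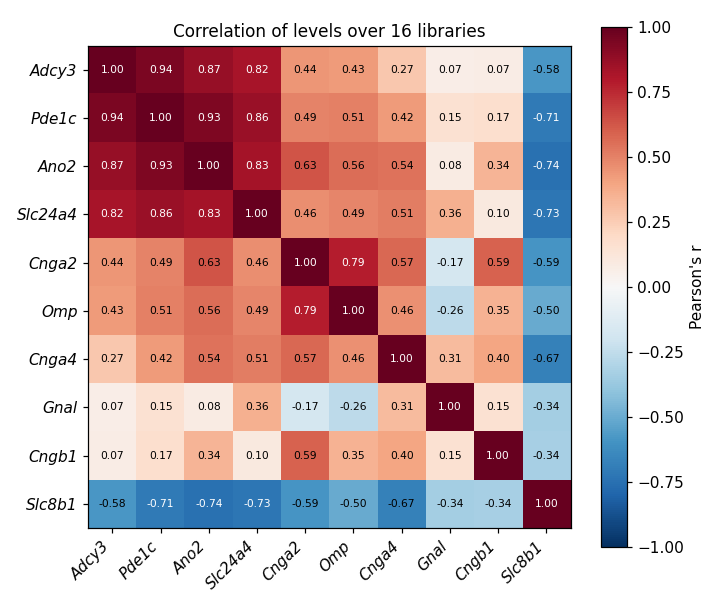
Pearson's r between the levels of each pair of the 10 genes over 16 libraries, with red above 0 and blue below. Adcy3, Pde1c, Ano2 and Slc24a4 form the dark red corner with r from 0.82 to 0.94, and the row of Slc8b1 is blue throughout.

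Beyond the 10 genes, the closest genes over 16 libraries differed from member to member. Pde1c was nearest to Cidea (r = 0.96), Olfr720 (0.96) and Inpp5f (0.95), and Adcy3 after Pde1c to the odorant receptor Olfr1093 (0.93) and Inpp5f (0.93). Ano2 was nearest to the odorant receptors Olfr281 (0.96), Olfr725 (0.96) and Olfr193 (0.95). Slc24a4 was nearest to Sema6c, Icmt and Lrch2, at 0.92 each. Slc8b1 was nearest to Slfn2, Marchf1 and Prss34, at 0.97 each. For Omp the nearest was Cryz (0.85), for Cnga2 Uqcc1 (0.93), for Cnga4 Snap47 (0.88), for Cngb1 Deaf1 (0.91) and for Gnal Trp63 (0.82).

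Promoter windows of 250 bases before a transcript start were read from RefSeq (GRCm38.p6) for 7 of the 10 genes. They hold the 4 genes of the correlated block and the 3 channel subunits outside it. Olfactory transduction genes are known to be controlled by EBF factors. The full EBF site (the core CCCNNGGG with T before it and A after it), a homeodomain core TAATTA and a cyclic AMP response element TGACGTCA, searched on both strands, were found in 0 of the 7 genes, against 0.914%, 5.65% and 1.77% of all 27025 genes. The EBF core CCCNNGGG alone, searched after the full site gave none and contained in it, was found in 4 of 7 genes, against 13.4% of all genes. These were Ano2, Slc24a4, Cnga2 and Cngb1, so it stood in members of both patterns. Genes with more starts have more windows, and by window the core was found in 4 of 12, against 11.8% of all 32851 windows. Below are 2 of the lower members and 1 channel subunit, all on the plus strand, with the core in capitals. They are chr6:125710938-125711187 for Ano2, at 1 of its 3 starts and with the core 67 to 60 bases before it, chr12:102128477-102128726 for Slc24a4, with the core at 109 to 102 bases, and chrX:71991599-71991848 for Cnga2, with the core at 66 to 59 bases.
Ano2: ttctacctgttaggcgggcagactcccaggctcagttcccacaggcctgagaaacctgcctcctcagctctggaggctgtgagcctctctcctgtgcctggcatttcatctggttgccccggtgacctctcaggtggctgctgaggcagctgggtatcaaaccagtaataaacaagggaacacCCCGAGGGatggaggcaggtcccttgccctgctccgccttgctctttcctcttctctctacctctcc
Slc24a4: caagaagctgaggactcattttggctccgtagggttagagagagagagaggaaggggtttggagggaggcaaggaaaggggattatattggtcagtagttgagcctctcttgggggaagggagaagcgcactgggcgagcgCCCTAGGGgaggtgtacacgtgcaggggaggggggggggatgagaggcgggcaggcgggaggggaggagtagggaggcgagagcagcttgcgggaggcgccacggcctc
Cnga2: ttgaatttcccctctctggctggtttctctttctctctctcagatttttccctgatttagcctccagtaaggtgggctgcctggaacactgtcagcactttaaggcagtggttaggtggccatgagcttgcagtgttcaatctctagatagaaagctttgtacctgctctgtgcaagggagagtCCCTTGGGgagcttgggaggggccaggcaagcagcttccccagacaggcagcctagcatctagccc
A match of these letters is a description of the sequence and not a bound site, and the other 2 Ano2 windows and the windows of Adcy3, Pde1c and Cnga4 hold no such core.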

How the data were processed

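The authors deposited 1 table of log2 levels for 16 Affymetrix arrays, and the submitters' processing notes name Affymetrix Expression Console as the tool. Its version, the summarization and the genome build were not given in the sources used here. Arrays have no read depth, and their number limits the precision. Per the labels' protocols, 50 to 100 ng of total RNA went into each labelling.

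Of 28846 probe sets, 6640 carried control identifiers, 19572 had 1 gene symbol, 0 had several and 2634 had none. A gene was represented by its probe set of highest 16-array mean (55 genes had a choice), which left 19505 genes. Of the control probe sets, 5222 are named as negative. Libraries correlated at 0.946 to 0.995, so none was a copy of another.

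Tests were two-sided and used lmFit and eBayes of limma 3.58.1 under R 4.3.3, in 1 fit of 4 group means without a block, over 16 and over 14 arrays, and again on pool means. Benjamini-Hochberg adjustment ran over all 19505 genes with a threshold of 0.05, and intervals are 95%. The scripts were tested on simulated data. Libraries of 1 pool share mice by the labels, which pairs them; deviations from group means correlated within a pool at -0.022 to 0.287 over 14 arrays and at -0.754 to 0.253 over 16. Alternatives were the 14 arrays, other scalings (array medians, quantiles, Omp), the probe set rule, a filter on low levels, limma's trend and robust settings, pool and number blocks, and leaving out each library. Centring on Omp was chosen after seeing the data.

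The 10 genes, the lists and the 14-array set were chosen with earlier results of these data known. Named genes were all 10 members, S100a5 as the label check, up to 4 genes per list with the smallest p, and the 3 genes most like each member; Adcy7 and Stoml3 were named for their values. Gene names came from the platform annotation, and promoters and chromosomes from RefSeq GRCm38.p6.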

Additional observations from a re-analysis of the deposited data

How the results depend on the processing

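Called members were counted again under each alternative. In odor mice over 16 arrays the 3 called members became 6 with arrays centred on their medians, while called genes went from 1359 to 5741 of 19505. The 3 called members became 0 with the pool of mice as a replicate block and 0 with the replicate number as a replicate block. The pool block put Ano2 and Slc24a4 at an adjusted p of 0.161 each and Pde1c at 0.161 by limma, and left 2 called genes in the whole table, against 1359 without it. Over 14 arrays the pool block ended no member's call in either treatment. Leaving out single libraries gave 0 to 4 called members in odor mice and 0 to 1 in vehicle mice over 16 arrays. Called genes in the whole table ran from 2 to 2184 in odor mice and from 0 to 1163 in vehicle mice. Over 14 arrays it gave 3 to 4 called members in odor mice (2043 to 2609 genes) and 2 to 3 in vehicle mice (1644 to 2267 genes). Vehicle mice had 3 called members over the 14 arrays without vehicle pool 3, against 0 over 16, beside 2180 and 0 called genes.

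With arrays centred on their medians, 9 members were called in odor mice and 8 in vehicle mice over 14 arrays. Under that scaling the all-gene median was -0.43 in odor mice, against -0.08 as deposited, and -0.46 in vehicle mice, against -0.10. It turned 1675 higher and 895 lower genes into 1344 higher and 8734 lower ones in odor mice. In vehicle mice 1533 higher and 647 lower genes became 1323 higher and 7074 lower ones. The added odor calls lay at -0.45 for Gnal, -0.45 for Cnga2, -0.44 for Cnga4 and -0.36 for Omp, close to that all-gene median, and at -0.64 for Adcy3, past it. Adcy3 was also called with limma's trend and robust settings and no such shift (adjusted p = 0.0204 by limma). Quantile normalization put Ano2 at an adjusted p of 0.0670 by limma in odor mice over 16 arrays and gave 1523 higher and 1564 lower genes over 14. Centring on Omp put the vehicle difference of Ano2 at -0.38 over 14 arrays (adjusted p = 0.127 by limma), and leaving out vehicle titled GFP+ replicate 1 put it at -0.41 (adjusted p = 0.119 by limma); its call was also lost without vehicle titled GFP+ replicate 4 or vehicle titled GFP- replicate 2 or 4. The filter on low levels left 8 members, without Cngb1 and Slc8b1. No called value reversed under any alternative, and every odor against vehicle comparison had 0 called members under each. Where a call was lost or gained and no shift is given, the cause was not tested. The replicate number was shared across treatments without a stated link. Over 14 arrays, deviations of libraries with the same number and fraction correlated at -0.118 to 0.312, and at -0.0856 to 0.359 for opposite fractions. Libraries of 1 pool of mice correlated at -0.022 to 0.287. These ranges overlap, so the correlations cannot tell whether the samples share more than a number.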
